A study of Mus musculus with 2 samples.

Results

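The mRNAs of the mitochondrial protein import machinery and of the SLC25 solute carriers were described in liver macrophages of FABP7 KO and WT mice with MC38 liver metastases. The members were the genes whose symbol began with Timm, Tomm or Slc25a followed by a digit, and there were 72 of them among the 22322 genes of the deposited table, 25 import translocases and 47 carriers. The data comprised 1 library from FABP7 KO mice and 1 library from WT mice, both on a C57BL/6 background, so differences between the genotypes could not be set against the spread of mice, and p-values were not computed. The FABP7 KO mice lack Fabp7 in every tissue, not in macrophages alone, and 1 field of the labels calls their sample a knockdown. The study used male mice of 6 to 8 weeks, which received 500000 MC38 cells, a mouse colon carcinoma line, in 100 µl into the spleen, and F4/80 positive cells were taken from the liver on day 10. The sources used here do not state how many mice went into either library.

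Nearly all mitochondrial proteins are made in the cytosol and enter the organelle through translocases. The TOM complex of the outer membrane receives them, the TIM23 complex of the inner membrane passes on those with a presequence, and small TIM chaperones escort hydrophobic proteins across the space between the membranes to the TIM22 complex, which inserts them into the inner membrane. The SLC25 carriers are the main clients of that last route, and they exchange nucleotides, phosphate, carboxylates, amino acids and cofactors between the matrix and the cytosol. In macrophages, citrate export and fatty acid entry through such carriers feed lipid synthesis and oxidation.

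The values were FPKM, fragments scaled to gene length and to the size of the library, so levels of different genes can be set side by side per length. Ratios are log2 of (FABP7 KO FPKM + 1) over (WT FPKM + 1), a scale that shrinks differences of low genes. A gene counted as measured when it reached 1 FPKM in at least 1 library, as 10770 genes did. Fabp7 itself stood at 0.69 FPKM in the FABP7 KO library and at 354 FPKM in the WT library, a log2 ratio of -7.71. Depth, estimated from the steps between low values, came to about 17600000 fragments in each library. Intervals given below are exact 95% binomial intervals of the plain ratio of FABP7 KO over WT fragments, and they cover counting error only, not differences between mice. Among all measured genes, 35.7% had such an interval below 1 and 35.7% above 1, so an interval that leaves out 1 was common.

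Both libraries carried macrophage and Kupffer cell markers at high level, and markers of other cells differed between them. The 11 pan-macrophage markers summed to 16892 FPKM in the FABP7 KO library and 13135 FPKM in the WT library. The 7 Kupffer cell markers summed to 13781 FPKM in the FABP7 KO library and 13566 FPKM in the WT library, with members on both sides of 0, between Marco at -0.95 and Id3 at 0.65. The 15 proliferation genes stood lower by 2-fold or more, with sums of 208 FPKM in the FABP7 KO library and 817 FPKM in the WT library. Of 18 hepatocyte markers, 16 were higher, with sums of 1223 FPKM in the FABP7 KO library and 616 FPKM in the WT library. Over all listed genes found in the table, at any level, the median log2 ratio was 1.19 for sinusoidal endothelial genes (12 of 12 above 0), 0.73 for stellate and fibroblast genes (8 of 10 above 0), 1.18 for neutrophil genes (10 of 11 above 0), 0.27 for erythroid genes (9 of 9 above 0), 0.87 for B and plasma cell genes (8 of 8 above 0) and 0.33 for T cell genes (6 of 8 above 0). The 7 epithelial genes, which MC38 cells could bring in, were low in both libraries and had a median of 0.04. The highest of them, Krt18, was at 2.48 FPKM in the FABP7 KO library and 3.38 FPKM in the WT library. Cldn4 was at 0 in both, and Epcam was at 0.13 FPKM in the FABP7 KO library and at 0 in the WT library. The part of these differences in the values below was not tested, and in such bulk libraries fewer cells of a type and less RNA per cell cannot be told apart.

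Import translocase mRNAs were mostly lower in the FABP7 KO library, while carrier mRNAs lay on both sides. Of 23 measured import translocases, 19 had a log2 ratio below 0 and 4 above 0, with a median of -0.22, beside the proliferation genes at a median of -2.39. Of 36 measured carriers, 20 were below 0 and 16 above 0, with a median of -0.05. Among all measured genes 49.5% were below 0, and the median was 0.004. The import median minus the carrier median was -0.17 on the log2 scale, a difference that was not tested, since it rests on 1 pair of libraries. It was -0.10 without members that have a near-identical copy, and it turned to 0.15 among members of 20 FPKM or more. At a size of 0.5 on the log2 scale, a fold of 1.41, 2 import translocases were lower and none was higher, and with a pseudocount of 0.1 FPKM 4 were lower, since Tomm40l and Tomm5 lie at the edge of this size. The carriers had 4 lower and 1 higher at that size, 3 of these 5 having reached 1 FPKM in 1 library only, where 10.1% of all measured genes were lower and 10.5% higher. No measured member reached 2-fold on this scale, as 2.95% of all measured genes did downward and 2.21% upward. The counting interval lay below 1 for 14 import translocases and above 1 for 1, and below 1 for 12 carriers and above 1 for 10. Over all measured genes it lay below 1 for 35.7% and above 1 for 35.7%.

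By summed level, the carriers had the lower ratio of the 2 groups. The import translocases together stood at 361 FPKM in the FABP7 KO library and 423 FPKM in the WT library, a ratio of 0.855. The carriers together stood at 898 FPKM in the FABP7 KO library and 1124 FPKM in the WT library, and over the measured ones the ratio was 0.799. The carrier sum was dominated by Slc25a5 and Slc25a3, so it followed these genes and not the middle of the family. Without both, the other 34 measured carriers had a summed ratio of 0.955 and a median log2 ratio of -0.02.

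**Figure D1:**
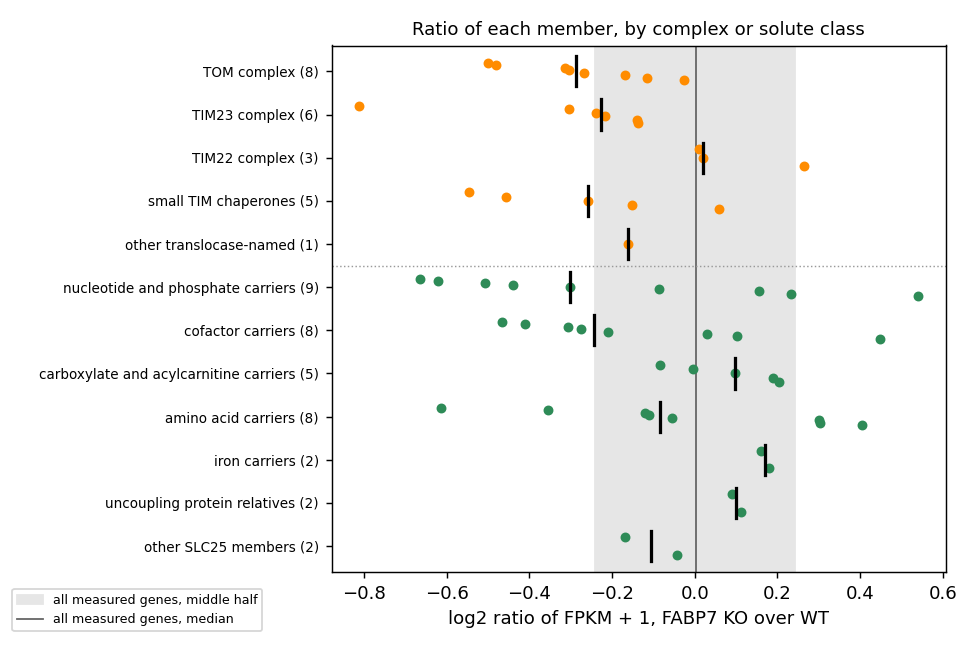
The x axis gives log2 of FABP7 KO over WT (FPKM + 1) for each measured member (points) by complex or solute class (rows, with the number of measured genes), import translocases above the dotted line and SLC25 carriers below it. Black ticks are class medians, and the grey band and line are the interquartile range and the median of all measured genes. The TOM and TIM23 points lie left of 0, with class medians of -0.29 and -0.23, and the 3 TIM22 points lie right of 0.

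Promoters are shown for the import translocases with the 2 lowest ratios and the highest one and for the most abundant carrier, so that genes at both ends of the range can be read side by side. They are the windows from 250 bases before to 50 after the RefSeq start on GRCm38.p6. Timm50 lies at chr7:28311997-28312296 on the minus strand, Timm8a1 at chrX:134541621-134541920 on the minus strand, Timm10b at chr7:105640195-105640494 on the plus strand and Slc25a5 at chrX:36795347-36795646 on the plus strand. Capitals mark matches, on either strand, to 5 motifs searched as exact letters: CCGGAAGT (ETS), GCGC followed by any base and TGCGC (NRF1), AAGATGGC (YY1), CACGTG (E-box) and CAAGGTCA (ERR).
Timm50: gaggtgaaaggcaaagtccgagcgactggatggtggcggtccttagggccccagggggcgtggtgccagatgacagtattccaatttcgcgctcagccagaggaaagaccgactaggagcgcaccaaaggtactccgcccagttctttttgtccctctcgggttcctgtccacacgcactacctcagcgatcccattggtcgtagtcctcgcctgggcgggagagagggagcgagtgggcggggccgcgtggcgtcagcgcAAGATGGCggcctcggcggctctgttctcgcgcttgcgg
Timm8a1: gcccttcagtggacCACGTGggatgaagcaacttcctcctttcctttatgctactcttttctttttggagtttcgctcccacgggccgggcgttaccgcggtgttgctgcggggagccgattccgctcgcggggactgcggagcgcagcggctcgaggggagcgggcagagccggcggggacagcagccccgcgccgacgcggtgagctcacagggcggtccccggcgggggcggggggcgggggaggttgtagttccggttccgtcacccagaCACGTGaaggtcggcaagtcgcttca
Timm10b: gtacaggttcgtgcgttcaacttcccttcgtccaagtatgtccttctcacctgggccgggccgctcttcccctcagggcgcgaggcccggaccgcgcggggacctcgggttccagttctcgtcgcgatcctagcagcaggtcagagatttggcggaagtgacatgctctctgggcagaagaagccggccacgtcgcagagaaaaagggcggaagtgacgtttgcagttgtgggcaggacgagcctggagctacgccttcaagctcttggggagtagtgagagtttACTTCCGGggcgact
Slc25a5: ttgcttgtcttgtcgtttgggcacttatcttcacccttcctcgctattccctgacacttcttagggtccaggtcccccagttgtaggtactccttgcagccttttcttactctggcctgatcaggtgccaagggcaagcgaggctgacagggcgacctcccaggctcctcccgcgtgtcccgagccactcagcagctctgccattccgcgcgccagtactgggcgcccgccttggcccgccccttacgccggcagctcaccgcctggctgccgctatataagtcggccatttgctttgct
The Timm50 window held 1 match to the YY1 letters, the Timm8a1 window 2 to the E-box, the Timm10b window 1 to the ETS letters on its minus strand, and the Slc25a5 window none. Promoter windows were found for 48 of the 59 measured members. The ETS letters stood in 22.7% of 22 import windows and 2.78% of 36 carrier windows, against 8.82% of the windows of measured genes and 3.89% of all RefSeq windows. The E-box letters stood in 18.2% of import and 22.2% of carrier windows, against 9.98% of the windows of measured genes and 7.15% of all windows. For the NRF1 letters the shares were 9.09%, 5.56%, 10.6% and 4.60% in the same order of sets, for YY1 4.55%, 2.78%, 4.84% and 2.75%, and for ERR 4.55%, 0%, 0.962% and 1.56%. The Timm10b and Slc25a20 windows, both with the ETS letters, belong to genes with ratios above 0, and so do those of Timm10 and Timm29, while those of Timm23 and Tomm70a belong to genes below 0. These matches describe the letters of the windows, and some genes have more than 1 window.

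In the TOM complex, all 8 measured genes had ratios below 0, with a median of -0.29. Tomm40l, a second form of the channel protein, stood at 9.72 FPKM in the FABP7 KO library and 14.2 FPKM in the WT library (log2 ratio -0.50, plain ratio 0.687, interval 0.629 to 0.749). Its exons overlap those of Nr1i3 on the other strand over 3304 bases, and Nr1i3 was at 0.13 FPKM in the FABP7 KO library and 0.19 FPKM in the WT library. Tomm40, the main channel, stood at 11.4 FPKM in the FABP7 KO library and 14.0 FPKM in the WT library (-0.27). The ratio of Tomm40l to Tomm40 was 0.850 in the FABP7 KO library and 1.01 in the WT library. Among the small subunits that hold the channel together, Tomm5 stood at 17.8 FPKM in the FABP7 KO library and 25.2 FPKM in the WT library (-0.48), and Tomm7 at 12.6 FPKM in the FABP7 KO library and 15.8 FPKM in the WT library (-0.30). Tomm6 stood at 27.8 FPKM in the FABP7 KO library and 30.2 FPKM in the WT library (-0.12). Exons of Tomm6 overlap those of other genes on either strand, among them Usp49, and its counting interval included 1. The receptors differed among themselves. Tomm20, which binds presequences, stood at 16.6 FPKM in the FABP7 KO library and 20.8 FPKM in the WT library (-0.31), and it has 4 near-identical copies that could share its reads. Tomm70a, the receptor for carrier precursors, stood at 17.2 FPKM in the FABP7 KO library and 19.5 FPKM in the WT library (-0.17). Tomm22, the central receptor and the most abundant TOM mRNA, stood at 43.2 FPKM in the FABP7 KO library and 44.0 FPKM in the WT library (-0.03, interval of the plain ratio 0.908 to 1.06), a difference within counting error. Tomm22 turned to a ratio above 0 under both other scalings, at 0.01 and 0.02, which leaves 7 of 8 TOM genes below 0.

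The TIM23 complex held Timm50, the import translocase with the lowest ratio. All 6 Timm genes of the complex were below 0, also under both other scalings, with a median of -0.23. Genes of its import motor with other symbols are counted with the partners below. Timm50, which takes presequence proteins over from TOM and keeps the TIM23 channel closed at rest, stood at 9.25 FPKM in the FABP7 KO library and 17.0 FPKM in the WT library (-0.81, plain ratio 0.545, interval 0.484 to 0.613). It rested on about 437 fragments in the FABP7 KO library and 802 in the WT library, has no near-identical copy and no exon overlap with another gene. The next lowest Timm gene of the complex was far from it. Timm23, the channel itself, stood at 49.0 FPKM in the FABP7 KO library and 60.7 FPKM in the WT library (-0.30), the highest import level in both, and it has 6 near-identical copies. Timm44, which tethers the import motor to the channel, stood at 17.3 FPKM in the FABP7 KO library and 20.2 FPKM in the WT library (-0.22). The paralogous subunits Timm17a and Timm17b lay close together. Timm17a stood at 4.77 FPKM in the FABP7 KO library and 5.81 FPKM in the WT library (-0.24), and Timm17b at 3.72 FPKM in the FABP7 KO library and 4.20 FPKM in the WT library (-0.14). Timm21, which couples TOM to TIM23 and the respiratory chain, stood at 4.0 FPKM in the FABP7 KO library and 4.5 FPKM in the WT library (-0.14). The counting intervals of Timm17b and Timm21 included 1.

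The TIM22 complex, which inserts the carriers, was the import complex with no gene below 0. Timm22, its channel, stood at 7.94 FPKM in the FABP7 KO library and 7.88 FPKM in the WT library (0.01). Timm29, known as a TIM22 subunit in human cells, stood at 11.0 FPKM in the FABP7 KO library and 10.8 FPKM in the WT library (0.02). Both were within counting error of no difference. Timm10b, a small TIM protein bound to TIM22, stood at 18.7 FPKM in the FABP7 KO library and 15.4 FPKM in the WT library (0.26, plain ratio 1.21, interval 1.11 to 1.32), the 1 Timm or Tomm gene with an interval above 1. Its exons overlap those of Arfip2 on the other strand and of predicted genes over 792 bases of 3582, and Arfip2 was at 9.60 FPKM in the FABP7 KO library and 10.4 FPKM in the WT library. Both other scalings raise all FABP7 KO values, so they could not bring these 3 genes below 0.

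Of the 5 measured small TIM chaperones, 4 were below 0 and 1 above, with a median of -0.26. Timm8a1, the mouse counterpart of the human deafness-dystonia gene, stood at 5.01 FPKM in the FABP7 KO library and 7.77 FPKM in the WT library (-0.55, plain ratio 0.645, interval 0.510 to 0.811), and it has 1 near-identical copy. Its partner Timm13 stood at 8.04 FPKM in the FABP7 KO library and 11.4 FPKM in the WT library (-0.46). Timm8b, the more abundant relative of Timm8a1, stood at 21.6 FPKM in the FABP7 KO library and 24.1 FPKM in the WT library (-0.15, within counting error). Timm9 and Timm10 form the chaperone that guides carriers, and their mRNAs lay on opposite sides. Timm9 stood at 6.17 FPKM in the FABP7 KO library and 7.57 FPKM in the WT library (-0.26), and Timm10 at 8.79 FPKM in the FABP7 KO library and 8.40 FPKM in the WT library (0.06, within counting error). Tomm34, a cytosolic cochaperone that shares only the name, stood at 29.8 FPKM in the FABP7 KO library and 33.5 FPKM in the WT library (-0.16). Timm8a2 and Tomm20l were not measured, at 0.06 FPKM in the FABP7 KO library and 0 in the WT library and at 0 in both.

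**Figure D2:**
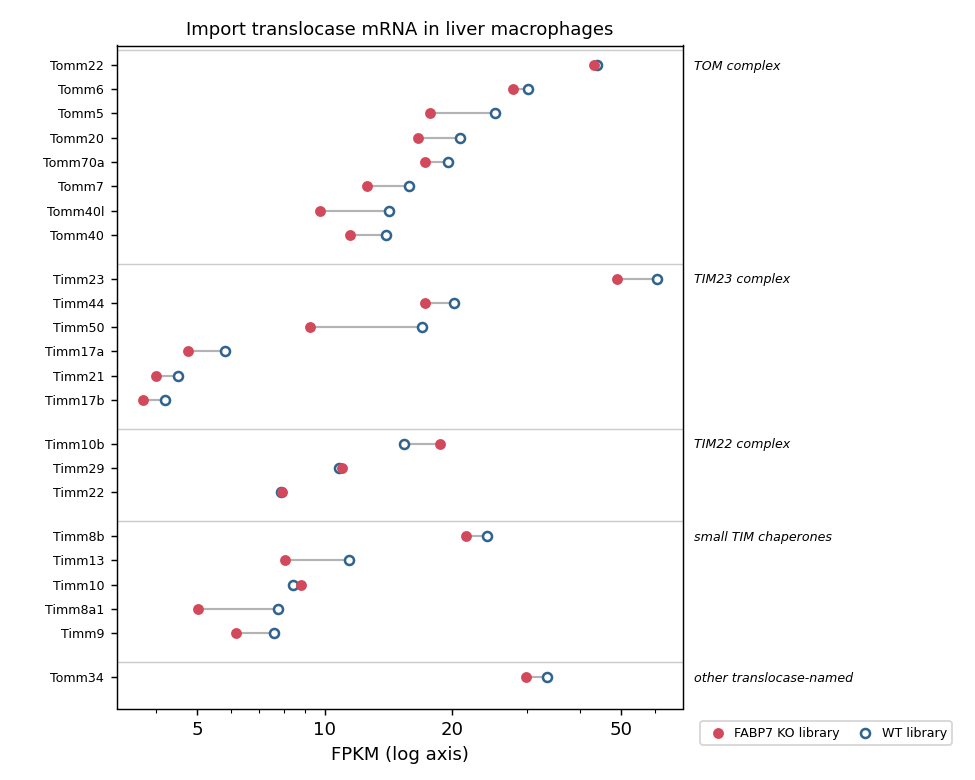
FPKM (x axis, log scale) of the 23 measured import translocases in the FABP7 KO library (filled points) and the WT library (open points), by complex. A line joins the values of a gene, which is 1 library per genotype. Timm50 has the longest line, between 9.25 FPKM in the FABP7 KO library and 17.0 FPKM in the WT library, and the TIM22 genes have the FABP7 KO point on the right or on top.

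The nucleotide and phosphate carriers held the most abundant carriers, Slc25a5 and Slc25a3, both lower in the FABP7 KO library. Slc25a5, the ADP/ATP carrier ANT2 that trades matrix ATP for cytosolic ADP, stood at 321 FPKM in the FABP7 KO library and 494 FPKM in the WT library (-0.62, plain ratio 0.650, interval 0.633 to 0.667). It made up 35.7% of all carrier FPKM in the FABP7 KO library and 43.9% in the WT library. The carrier sum was lower by 225 FPKM, and Slc25a5 accounted for 173 FPKM or 76.6% of that gap. Slc25a5 has 2 near-identical copies, and reads shared with them could not be told apart. Slc25a3, the phosphate carrier, stood at 137 FPKM in the FABP7 KO library and 169 FPKM in the WT library (-0.30, plain ratio 0.811, interval 0.793 to 0.830), and both genes together made up 90.8% of the gap. Slc25a4, the ADP/ATP carrier ANT1 of muscle and heart, stood at 23.4 FPKM in the FABP7 KO library and 32.1 FPKM in the WT library (-0.44). Slc25a5 exceeded Slc25a4 by 13.7 times in the FABP7 KO library and 15.4 times in the WT library.

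The calcium-regulated ATP-Mg/phosphate carriers differed among themselves. Slc25a24 stood at 10.9 FPKM in the FABP7 KO library and 16.0 FPKM in the WT library (-0.51, plain ratio 0.685, interval 0.620 to 0.758). Slc25a25 stood at 5.71 FPKM in the FABP7 KO library and 6.12 FPKM in the WT library (-0.09, within counting error). Slc25a23 stood at 1.34 FPKM in the FABP7 KO library and 0.61 FPKM in the WT library (0.54, plain ratio 2.2, interval 1.59 to 3.05), the 1 carrier higher by 0.5 or more. Slc25a31, the ADP/ATP carrier of the germ line, stood at 0.78 FPKM in the FABP7 KO library and 1.82 FPKM in the WT library (-0.66, plain ratio 0.429, interval 0.266 to 0.668). These 2 genes and Slc25a13 reached the 1 FPKM minimum only in the library where they were higher, which selects for a difference, and on the plain scale each is past 2-fold. Slc25a31 rested on about 29 fragments in the FABP7 KO library and 68 in the WT library. The pyrimidine nucleotide carriers Slc25a33 and Slc25a36 were both above 0. Slc25a33 stood at 19.6 FPKM in the FABP7 KO library and 17.5 FPKM in the WT library (0.16), and Slc25a36 at 30.7 FPKM in the FABP7 KO library and 26.0 FPKM in the WT library (0.23). Over the class, 6 of 9 measured genes were below 0 and the median was -0.30. Without this class the other 27 measured carriers had 14 below 0 and 13 above, with a median of -0.005.

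Cofactor carriers were split, with 5 of 8 measured genes below 0 and a median of -0.24. Slc25a51, the carrier of NAD+, stood at 22.3 FPKM in the FABP7 KO library and 31.1 FPKM in the WT library (-0.47, plain ratio 0.716, interval 0.677 to 0.757). Slc25a39, which brings glutathione into the matrix, stood at 49.5 FPKM in the FABP7 KO library and 61.4 FPKM in the WT library (-0.31). Its relative Slc25a40 stood at 3.58 FPKM in the FABP7 KO library and 3.49 FPKM in the WT library (0.03, within counting error). Slc25a26, the S-adenosylmethionine carrier, stood at 2.70 FPKM in the FABP7 KO library and 3.92 FPKM in the WT library (-0.41). The folate and flavin carrier Slc25a32 stood at 3.82 FPKM in the FABP7 KO library and 4.83 FPKM in the WT library (-0.27). Slc25a17, a carrier of cofactors in the peroxisome rather than the mitochondrion, stood at 15.0 FPKM in the FABP7 KO library and 17.5 FPKM in the WT library (-0.21). Slc25a16, linked to coenzyme A, stood at 6.53 FPKM in the FABP7 KO library and 6.02 FPKM in the WT library (0.10, within counting error).

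The 5 measured carriers of carboxylates and acylcarnitine lay near 0, with a median of 0.10. Slc25a1, the citrate carrier that supplies lipid synthesis, stood at 16.1 FPKM in the FABP7 KO library and 17.1 FPKM in the WT library (-0.08). Slc25a11, the oxoglutarate carrier of the malate-aspartate shuttle, stood at 37.6 FPKM in the FABP7 KO library and 37.7 FPKM in the WT library (-0.005), and it turned to 0.03 and 0.05 under the other scalings. Slc25a10, the dicarboxylate carrier, stood at 18.0 FPKM in the FABP7 KO library and 16.7 FPKM in the WT library (0.10). For all 3 the difference was within counting error. Slc25a20, the carnitine-acylcarnitine carrier that brings long-chain fatty acids in for oxidation, stood at 13.7 FPKM in the FABP7 KO library and 11.7 FPKM in the WT library (0.20), with an interval above 1. Slc25a35 stood at 1.93 FPKM in the FABP7 KO library and 1.57 FPKM in the WT library (0.19, within counting error), and its exons overlap those of Rangrf on the other strand over 1151 bases.

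Amino acid carriers lay on both sides, with 5 of 8 measured genes below 0 and a median of -0.08. The aspartate-glutamate carriers of the malate-aspartate shuttle were both lower. Slc25a12 stood at 15.9 FPKM in the FABP7 KO library and 20.7 FPKM in the WT library (-0.36), and Slc25a13 at 0.87 FPKM in the FABP7 KO library and 1.86 FPKM in the WT library (-0.61, plain ratio 0.468, interval 0.336 to 0.644). Slc25a12 exceeded Slc25a13, the form of hepatocytes, by 18.3 times in the FABP7 KO library and 11.1 times in the WT library. The ornithine carrier Slc25a15 stood at 2.71 FPKM in the FABP7 KO library and 3.03 FPKM in the WT library (-0.12). The branched-chain amino acid carrier Slc25a44 stood at 11.5 FPKM in the FABP7 KO library and 12.5 FPKM in the WT library (-0.11), and the glutamate carrier Slc25a22 at 17.4 FPKM in the FABP7 KO library and 18.1 FPKM in the WT library (-0.06). These 3 were within counting error. Slc25a38, which imports glycine for heme synthesis, stood at 8.43 FPKM in the FABP7 KO library and 6.66 FPKM in the WT library (0.30). Slc25a45 stood at 50.4 FPKM in the FABP7 KO library and 40.6 FPKM in the WT library (0.30, plain ratio 1.24, interval 1.17 to 1.32), the highest level of any carrier with a ratio above 0. Slc25a47, known for its expression in hepatocytes, stood at 2.52 FPKM in the FABP7 KO library and 1.66 FPKM in the WT library (0.40). Slc25a13 went the other way, and the hepatocyte markers had a median ratio of 0.81. The part of hepatocytes in either value was not tested.

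The remaining classes were small. The mitoferrins, which bring iron in for heme and iron-sulfur clusters, were both above 0. Slc25a37 stood at 9.31 FPKM in the FABP7 KO library and 8.11 FPKM in the WT library (0.18), and Slc25a28 at 8.09 FPKM in the FABP7 KO library and 7.13 FPKM in the WT library (0.16). The uncoupling protein relatives Slc25a30 and Slc25a14 stood at 5.27 and 1.42 FPKM in the FABP7 KO library and at 4.89 and 1.24 FPKM in the WT library (0.09 and 0.11). Slc25a46, an outer membrane protein of mitochondrial fission and fusion, stood at 10.1 FPKM in the FABP7 KO library and 10.4 FPKM in the WT library (-0.04). Slc25a43 stood at 2.05 FPKM in the FABP7 KO library and 2.43 FPKM in the WT library (-0.17). The last 4 were within counting error.

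Of the 11 carriers that were not measured, Slc25a2, Slc25a34, Slc25a41 and Slc25a54 were at 0 in both libraries, and Slc25a18, Slc25a21, Slc25a27, Slc25a29 and Slc25a48 were under 0.2 FPKM in both. Slc25a42, a coenzyme A carrier, stood at 0.80 FPKM in the FABP7 KO library and 0.73 FPKM in the WT library, and Slc25a53 at 0.39 FPKM in the FABP7 KO library and 0.92 FPKM in the WT library. With these included, 22 of 47 carriers were below 0, 20 above 0 and 5 equal, and 19 of 25 import translocases were below 0.

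**Figure D3:**
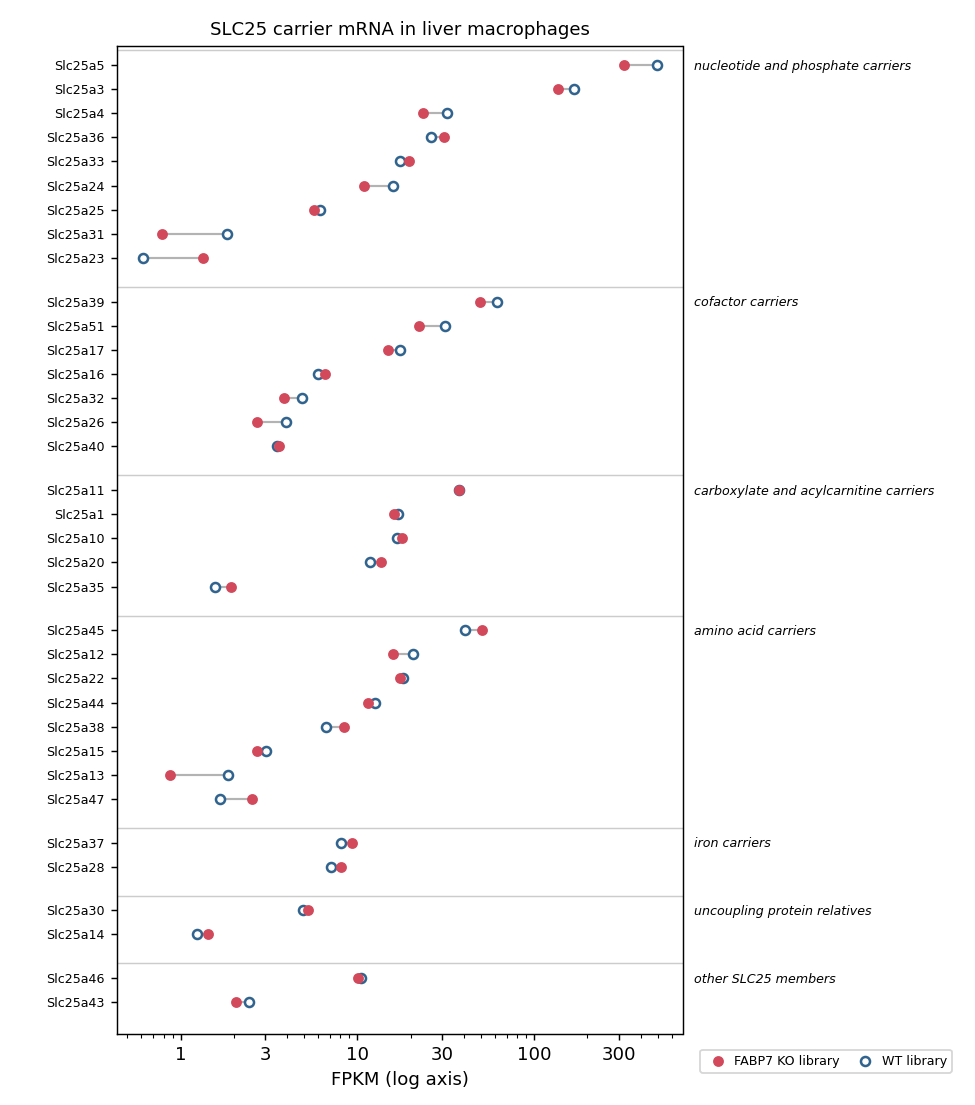
FPKM (x axis, log scale) of 35 measured SLC25 carriers in the FABP7 KO library (filled points) and the WT library (open points), by transported solute. A line joins the values of a gene. Slc25a5 at 321 FPKM in the FABP7 KO library and 494 FPKM in the WT library lies to the right of all others, and the genes with FABP7 KO points to the right of WT points are spread over most classes.

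The ratios were also read against level, since genes of high level tended to be lower in the FABP7 KO library. Among all measured genes with a mean of 20 FPKM or more, 57.6% were below 0 and the median was -0.06, and under 20 FPKM 45.7% were below 0 and the median was 0.04. The 6 import translocases at 20 FPKM or more had a median of -0.16 and the 17 under it -0.24. The 8 carriers at 20 FPKM or more had a median of -0.30 and the 28 under it -0.01. The import median minus the carrier median was thus -0.23 under 20 FPKM and turned to 0.15 at 20 FPKM or more.

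**Figure D4:**
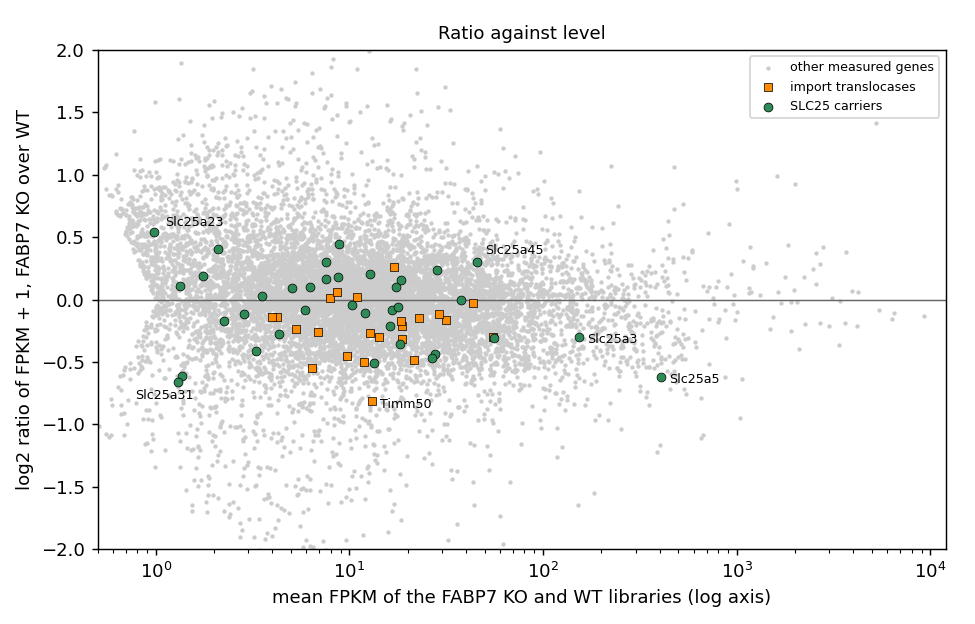
The y axis gives log2 of FABP7 KO over WT (FPKM + 1), plotted against the mean FPKM of both libraries (x axis, log scale), for import translocases (squares), SLC25 carriers (circles) and all other measured genes (grey). Of the grey genes, 77 lie outside the plotted range of ratios. Slc25a5 and Slc25a3 are the carriers of highest level, at ratios of -0.62 and -0.30.

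The members' partners were listed to place these values in the pathway. Of 24 genes that work with the translocases, all measured, 20 were below 0 and 4 above, 5 were lower by 0.5 or more, and the median was -0.15, where 49.5% of all measured genes were below 0 and 10.1% lower by 0.5 or more. Hspa9, the mitochondrial HSP70 that pulls proteins in, stood at 58.8 FPKM in the FABP7 KO library and 84.9 FPKM in the WT library (-0.52). The folding chaperone Hspd1 stood at 70.2 FPKM in the FABP7 KO library and 109 FPKM in the WT library (-0.62), and its cochaperone Hspe1 at 31.1 FPKM in the FABP7 KO library and 45.6 FPKM in the WT library (-0.54). Mtch2, an insertase of the outer membrane, stood at 32.5 FPKM in the FABP7 KO library and 47.1 FPKM in the WT library (-0.52), and its relative Mtch1 at 47.4 FPKM in the FABP7 KO library and 52.5 FPKM in the WT library (-0.14). Hspd1, Hspe1 and Mtch2 each have 1 near-identical copy. Pam16, a subunit of the import motor, stood at 0.85 FPKM in the FABP7 KO library and 3.17 FPKM in the WT library (-1.17), the 1 partner past 2-fold. It passed the minimum in the WT library only, has 1 near-identical copy and overlaps Glis2 on the other strand.

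Of 20 other channels and transporters of the mitochondrial membranes, 18 were measured, with 12 below 0, 6 above and a median of -0.18. In this list 5 were lower by 0.5 or more, where 49.5% of all measured genes were below 0 and 10.1% lower by 0.5 or more. The porins of the outer membrane were all lower by more than 0.5. Vdac1 stood at 55.6 FPKM in the FABP7 KO library and 83.2 FPKM in the WT library (-0.57), Vdac2 at 107 FPKM in the FABP7 KO library and 154 FPKM in the WT library (-0.52), and Vdac3 at 53.4 FPKM in the FABP7 KO library and 77.0 FPKM in the WT library (-0.52). Vdac2 has 1 near-identical copy and Vdac3 has 2. Tspo, the outer membrane protein that binds cholesterol, had the lowest ratio of the list, at 25.9 FPKM in the FABP7 KO library and 47.8 FPKM in the WT library (-0.86), and Abcb6, a porphyrin transporter, stood at 2.66 FPKM in the FABP7 KO library and 4.5 FPKM in the WT library (-0.59). Exons of Abcb6 overlap those of a predicted gene on the same strand over 2932 bases of 5315. Ucp2, an SLC25 family protein that the symbol rule leaves out, stood at 578 FPKM in the FABP7 KO library and 496 FPKM in the WT library (0.22), above Slc25a5 in both. With Ucp1, Ucp2, Ucp3, Mtch1 and Mtch2 counted as family members, 39 of 52 were measured, 22 were below 0 and the median was -0.06. The family's sum was then 1556 FPKM in the FABP7 KO library and 1720 FPKM in the WT library.

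Other mitochondrial gene families gave a scale for these medians. Over all measured genes, 49.5% were below 0 and the median was 0.004. Of 78 mitochondrial ribosomal protein genes, 73 were below 0 and the median was -0.33. Of 37 measured complex I subunit genes, 34 were below 0, with a median of -0.33 as well. The import median of -0.22 lay between these and that of the carriers, -0.05. Genes of the mitochondrial genome itself, 13 in number, had a median of 0.06, and 129 measured SLC genes outside the SLC25 family a median of 0.07, with 48 below 0 and 80 above.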

How the data were processed

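mRNA of F4/80 positive liver macrophages was selected with oligo(dT), primed at random and sequenced on an Illumina NovaSeq. The authors deposited FPKM values for 22322 genes in 1 FABP7 KO and 1 WT library. TopHat2 2.1.1 and Bowtie2 2.2.8 appear in the submitters' processing notes. The sources used here do not give the build, annotation, counting tool or strandedness. A table of mouse gene names gave symbols for 22267 Ensembl IDs, and 55 had none. Promoter sequences are from RefSeq.

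Ratios used a pseudocount of 1 FPKM and a minimum of 1 FPKM in at least 1 library, with sizes of 0.5 and 1 on the log2 scale. With 1 library per genotype no test was made. Depth was the number of fragments, out of a grid, at which most low values of single-transcript genes lay within 0.15 of a whole number. The share was 94.2% of 69 values in the FABP7 KO library and 89.5% of 76 in the WT library. At a fixed depth chance gives 30%, and for the best depth of a grid it gives more. Exon lengths came from GENCODE M21, an assumption about the authors' lengths. Depth and intervals were tested on data simulated with the same exon lengths, which cannot check that assumption. Near-identical copies were transcripts of other genes matching over 200 bases or more at 95% identity or more (BLAST 2.17.0). Overlaps came from GENCODE M21. Among measured members, 9 had a copy, 20 an antisense overlap and 5 an overlap on the same strand, and not all are marked in the text. Timm17a, Slc25a12, Slc25a36, Slc25a37 and Slc25a40 are among those with a copy.

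Members, classes and lists were chosen with earlier results of these data known. All measured members but 1, whose own values are not reported here, are named, and of the 2 partner lists up to 4 genes with the largest ratios and up to 4 with the highest mean. The promoters shown, the motifs, the comparison families, the split at 20 FPKM, the related pairs, the family with Ucp and Mtch genes and both settings that leave out members were chosen after values were seen. Class substrates follow general knowledge, and some are presumed. Alternatives were a pseudocount of 0.1, no minimum, a minimum of 5 FPKM, 2 other scalings, a size of 1, and leaving out members with copies or the nucleotide and phosphate carriers. Software versions were SciPy 1.17.1, NumPy 2.4.6, pandas 2.3.3 and Matplotlib 3.10.9 under Python 3.11.15.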

Additional observations from a re-analysis of the deposited data

How the results depend on the processing

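The median log2 ratio of import translocases was -0.24 to -0.16 over all settings run, that of the carriers -0.06 to 0, and the difference of the medians -0.21 to -0.10, the last value without members that have a near-identical copy. Split by level, a choice made after values were seen, the difference was -0.23 under 20 FPKM and 0.15 at 20 FPKM or more. The count of import translocases lower by 0.5 or more was 4 with a pseudocount of 0.1 and 0 at a size of 1. The count of lower carriers was 2 with a minimum of 5 FPKM and 0 at a size of 1. The count of higher carriers was 2 with a pseudocount of 0.1, 0 with a minimum of 5 FPKM and 0 at a size of 1. Fewer genes pass a larger minimum or size by construction.

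Multiplying FABP7 KO values by 1.03 (0.04 on the log2 scale), which centres the ratios of genes at 10 FPKM or more, turned Slc25a11 to 0.032 and Tomm22 to 0.010. Multiplying them by 1.04 (0.05 on the log2 scale), which equalises the totals once hepatocyte, erythroid and mitochondrial-genome genes are left out, turned Slc25a11 to 0.045, Tomm22 to 0.024 and Slc25a46 to 0.0032. These 5 were the reversals among 177 values of single members. Both scalings raise the FABP7 KO values, so under them only ratios below 0 could turn. Import translocases below 0 numbered 18 under both scalings, and carriers below 0 numbered 19 and 18. No paired analysis was possible because each genotype has 1 library. Depth limits the lowest members, the smallest of which rested on about 97 fragments over both libraries, with a median of 1254 per measured member.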
